A study of Mus musculus with 8 samples.

Results

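The genes described here are the classical MHC class II genes H2-Aa, H2-Ab1 and H2-Eb1, their accessory genes H2-DMa, H2-DMb1 and Cd74, and the master regulator Ciita. The count table spells the first 5 with a point, as H2.Aa, H2.Ab1, H2.Eb1, H2.DMa and H2.DMb1. They are 7 of 22065 named genes in the count table. They were chosen by symbol, with H2-Aa known beforehand to be much lower in Mitol KO HSCs, so their difference between the groups is described and not tested. The RNA came from hematopoietic stem cells (HSCs; Lineage-, CD150+, CD48-, EPCR+) sorted from the bone marrow of C57BL/6 mice aged 8 to 10 weeks, at 100 cells per library. The paper's definition of long-term HSCs also includes c-Kit, the product of Kit. All mice carried Mitol Flox/Flox alleles and all received Poly:IC, and HSCs were taken 1 week later. The 4 Mitol KO libraries came from mice with MX1-cre, in which the interferon-inducible Mx1 promoter drives the recombinase, and the 4 Control libraries from mice without it. Poly:IC itself induces interferon, so every library followed an interferon stimulus, and none without Poly:IC enters the comparison. Recombination by MX1-cre is not confined to HSCs, so other cells of the Mitol KO mice may carry the deletion.

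MHC class II molecules are heterodimers of an alpha and a beta chain that present peptides from endocytosed protein to CD4+ T cells. H2-Aa and H2-Ab1 encode the chains of I-A, and H2-Eb1 the beta chain of I-E, whose alpha chain C57BL/6 mice do not make. The invariant chain CD74 escorts new dimers to the endosome, where proteases trim it and the H2-DM dimer, made from H2-DMa and H2-DMb1, exchanges the remaining fragment for peptide. H2-O, made from H2-Oa and H2-Ob, inhibits H2-DM. CIITA binds no DNA itself and is recruited by RFX, CREB/ATF and NF-Y factors sitting on the X and Y boxes of these promoters. Class II is best known from dendritic cells, B cells and macrophages, and HSCs also transcribe it.

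Class II promoters are known for boxes that those factors bind. The 250 bases before the start of each canonical transcript were searched on both strands of GRCm39 for the Y box core ATTGG, for the X box core CTAGNNAC and for the longer Y box TGATTGG, which contains the core and was chosen after the sequences had been read. The longer Y box lay in the promoters of H2-Aa, H2-Ab1, H2-Eb1 and H2-DMa but not in those of H2-DMb1, Cd74 and Ciita. It also lay before H2-DMb2, H2-Eb2 and H2-Ob but not before H2-Oa. Of 21734 protein-coding promoters of the same length, 8.31% held it, 36.5% held the Y box core, 9.57% held the X box core and 0.235% held an X box core with a Y box core starting 20 to 40 bases after it. Shown are the stretches ending just after the longer Y box in 4 members, in the paralog H2-DMb2 and in H2-Ob, with TGATTGG and any X box core in capitals. Each is given on the strand of its gene.
H2-Aa, chr17:34506831-34506892, minus strand: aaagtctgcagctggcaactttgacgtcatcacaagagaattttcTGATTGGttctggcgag
H2-Ab1, chr17:34482109-34482170, plus strand: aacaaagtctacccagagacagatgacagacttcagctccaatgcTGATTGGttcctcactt
H2-Eb1, chr17:34524735-34524796, plus strand: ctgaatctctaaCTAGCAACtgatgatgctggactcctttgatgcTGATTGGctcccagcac
H2-DMa, chr17:34354474-34354535, plus strand: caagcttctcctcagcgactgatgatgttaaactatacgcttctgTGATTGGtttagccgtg
H2-DMb2, chr17:34364086-34364147, plus strand: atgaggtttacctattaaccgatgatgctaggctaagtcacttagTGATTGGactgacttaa
H2-Ob, chr17:34457775-34457835, plus strand: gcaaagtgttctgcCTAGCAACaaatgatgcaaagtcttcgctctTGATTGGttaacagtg
The Y box began 50 bases before the start in H2-Aa, 29 in H2-Ab1, 33 in H2-Eb1 and 41 in H2-DMa. In H2-Eb1 an X box core began 35 bases upstream of the Y box core on the same strand, and in H2-Ob 33 bases upstream. A match to these letters is not evidence of binding in HSCs, and the absence of a match says nothing about it.

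Named counts totalled 9212488 to 12398138 per Mitol KO library and 7214935 to 9906457 per Control library. Levels are CPM, read counts relative to the library's total count, with totals scaled by the trimmed mean of M-values (TMM). Marchf5, which encodes MITOL, was at 29.0, 24.3, 32.9 and 29.8 CPM in Mitol KO replicates 1 to 4 and at 31.9, 33.2, 35.6 and 28.2 CPM in Control replicates 1 to 4. These overlap, and a count over the whole gene cannot show the loss of a floxed stretch, so this does not check the labels and the group names are those of the labels. All 17 HSC marker genes examined were in the table. Their summed level was 3860 to 4390.5 CPM in Mitol KO and 5116 to 5635 CPM in Control, with Kit, Hlf, Hoxa9 and Gata2 past the threshold given below and lower in Mitol KO, 4 of 17 beside 3.75% of all genes and 2 without Control replicate 4. None was past it and higher (edgeR, 0 at an adjusted p-value under 0.05, 3 at an unadjusted one, 3 by DESeq2 and 0 by limma-voom). The 3 were Slamf1, which encodes CD150, Ly6a, which encodes Sca-1, and Esam, with log2 fold changes of 0.56 ± 0.16, 0.76 ± 0.23 and 0.36 ± 0.11 (SE; edgeR, adjusted p = 0.0501, 0.0605 and 0.0682). The part of these genes in the class II differences was not tested. Nothing in the sources used here says that libraries came from separate mice, so p-values measure the spread between these libraries, which may be technical. Intervals on single counts cover counting error only, because the reads carried no molecular identifiers.

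H2-Aa was the member with the largest difference. It was at 4.93, 10.1, 5.96 and 2.24 CPM in Mitol KO replicates 1 to 4, from 60, 93, 61 and 20 reads. In Control replicates 1 to 4 it was at 17.9, 16.8, 20.1 and 44.6 CPM, from 127, 148, 200 and 462 reads. All 4 Mitol KO libraries lay below all 4 Control libraries, with Mitol KO replicate 4 lowest and Control replicate 4 standing well above its group. The counting interval for H2-Aa was 1.37 to 3.46 CPM in Mitol KO replicate 4 (exact Poisson, 95%) and 40.6 to 48.9 CPM in Control replicate 4, far narrower than the distance between libraries. Mean levels of H2-Aa were 5.81 ± 3.28 CPM (SD, n = 4) in Mitol KO and 24.8 ± 13.2 CPM in Control, 4.27-fold apart. The fitted log2 fold change of H2-Aa was -2.10 ± 0.41 (SE), and -1.65 when Control replicate 4 was left out. Over all libraries it was the 40th lowest of 16444 genes tested, a place that follows from how H2-Aa was chosen. In bulk RNA of this kind, fewer cells with class II transcripts and less class II RNA per cell cannot be told apart.

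H2-Ab1, the partner chain of H2-Aa, differed by less. Its levels were 12.1, 10.3, 13.7 and 6.71 CPM in Mitol KO and 20.4, 12.9, 19.3 and 33.3 CPM in Control. Only Mitol KO replicate 3 lay above the lowest Control library, replicate 2, so the groups overlapped. The log2 fold change of H2-Ab1 was -1.0 ± 0.29 (SE), from 10.7 ± 2.99 CPM (SD, n = 4) to 21.5 ± 8.54 CPM, and -0.71 without Control replicate 4. Reads on H2-Aa per read on H2-Ab1 were 0.408, 0.979, 0.436 and 0.333 in Mitol KO and 0.876, 1.30, 1.04 and 1.34 in Control. Mitol KO replicate 2 thus fell within the Control range of this ratio, and the other 3 lay below it. Because H2-Aa was chosen for its low level in Mitol KO, a lower ratio there follows in part from that choice. H2-Eb1 was at 1.89, 1.74, 5.08 and 1.12 CPM in Mitol KO and at 5.20, 3.52, 8.15 and 18.2 CPM in Control. Mitol KO replicate 3 overlapped Control replicate 2, and the lowest library rested on 10 reads, with a counting interval of 0.536 to 2.06 CPM. Its log2 fold change was -1.83 ± 0.54 (SE), and -1.19 without Control replicate 4. A stretch of 7.66% of its exonic bases overlaps the minus-strand gene Gm20513.

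Ciita, the regulator, was lower in every Mitol KO library, with no library far from its group. Its levels were 6.40, 4.57, 9.08 and 6.38 CPM in Mitol KO and 16.3, 19.8, 14.4 and 23.6 CPM in Control. The highest Mitol KO library of Ciita was below the lowest Control library. Means of Ciita were 6.61 ± 1.86 CPM (SD, n = 4) and 18.5 ± 4.05 CPM, 2.80-fold apart, with a log2 fold change of -1.48 ± 0.24 (SE). Leaving out any single library moved the Ciita value between -1.66 and -1.34. The gene spans chr16:10297923-10347694 on the plus strand, with 19 exons in its canonical transcript.

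Over all 8 libraries the log2 fold changes of the H2-DM genes were the smallest of the members, whereas without Control replicate 4 that of Cd74 was, at -0.23 beside -0.29 for H2-DMa and -0.31 for H2-DMb1. H2-DMa was at 70.4, 61.4, 70.9 and 72.9 CPM in Mitol KO and at 86.1, 84.7, 81.5 and 86.5 CPM in Control. The groups of H2-DMa did not overlap, although the difference was small against the other members, with a log2 fold change of -0.30 ± 0.091 (SE). Control replicate 4, which led all 4 Control libraries in each of the other members, was level with replicate 1 here. H2-DMb1 was at 10.3, 8.06, 8.11 and 8.84 CPM in Mitol KO and at 10.3, 10.5, 11.97 and 17.3 CPM in Control. Mitol KO replicate 1 of H2-DMb1 lay just above Control replicate 1, and the log2 fold change was -0.50 ± 0.21 (SE), or -0.31 without Control replicate 4. A share of 19.1% of the 75-base windows of the H2-DMb1 transcript also occurred in H2-DMb2, and 20.3% of its exonic bases overlapped the minus-strand gene Gm64535, so its count is uncertain.

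Cd74, the invariant chain gene, depended most on a single library. Its levels were 33.7, 40.4, 46.6 and 33.9 CPM in Mitol KO and 48.1, 42.3, 45.3 and 154 CPM in Control. Control replicate 4 held more than the other 3 Control libraries together, while Mitol KO replicate 3 lay within the range of those 3. The log2 fold change of Cd74 was -0.91 ± 0.36 (SE) over all libraries and -0.23 without Control replicate 4. Reads on Cd74 per read on H2-Aa ranged from 3.99 to 15.2 in Mitol KO and from 2.25 to 3.46 in Control. The ratio therefore did not overlap between groups, and Control replicate 4, with the most of both genes, had the highest value among Controls. H2-Aa was chosen for its low level in Mitol KO, so a higher ratio there follows in part from that choice. Nothing further is read from it.

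**Figure D1:**
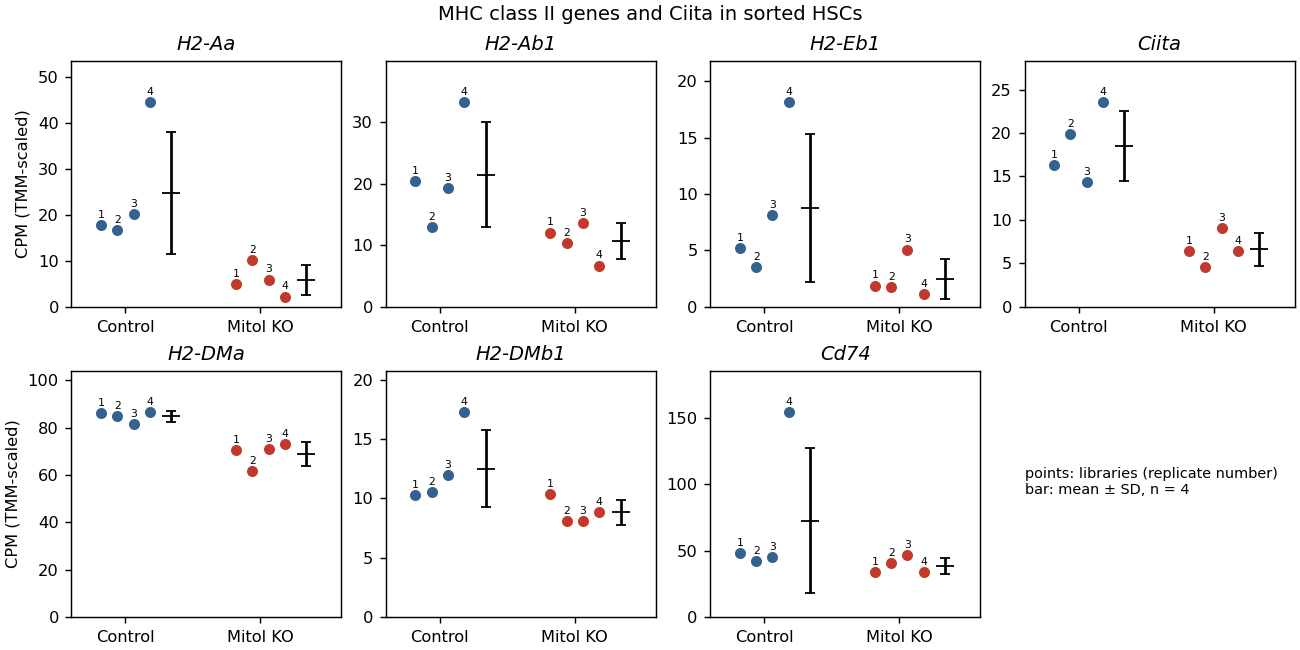
CPM (TMM-scaled, linear axes from 0) of the 7 genes in each library, with Control in blue, Mitol KO in red, replicate numbers beside the points and bars for the mean ± SD (n = 4). H2-Aa, Ciita and H2-DMa do not overlap between groups, and Control replicate 4 stands far above the rest for Cd74 (154 CPM) and H2-Aa (44.6 CPM).

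All 7 log2 fold changes were below 0, with a median of -1.0, against a median of -0.02 and 52.3% below 0 over all 16444 genes tested. The threshold for other genes is an adjusted p-value under 0.05 in edgeR's quasi-likelihood test, adjusted by Benjamini-Hochberg. Over all genes 3.75% were past it and lower in Mitol KO. Since the members were picked for this contrast, no calls are given for single members. How many were past the threshold is given further below only to compare settings. H2-Aa, Ciita and H2-DMa, 3 of 7, were separate and lower, beside 7.87% of all genes, and nothing is read from that share. Summed over the members, the level was 132 to 159 CPM in Mitol KO and 191 to 378 CPM in Control, where the highest library without replicate 4 was at 204 CPM. Without Cd74 the sums were 96.3 to 113 CPM and 148 to 223 CPM. H2-Aa made up 4.09 ± 2.40% (SD, n = 4) of the reads summed over the members in Mitol KO and 9.85 ± 1.43% in Control.

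Divided by transcript length, the levels also set the members in order within Control. H2-DMa was at 73.6 ± 1.97 CPM per kb (SD, n = 4), Cd74 at 50.7 ± 38.2, H2-Aa at 22.02 ± 11.7 and H2-Ab1 at 17.7 ± 7.05 CPM per kb. Cd74 reached from 29.6 to 108 CPM per kb and so was not separable from H2-DMa, and H2-Aa and H2-Ab1 overlapped as well. H2-DMb1 followed at 8.91 ± 2.32, H2-Eb1 at 5.16 ± 3.86 and Ciita at 2.48 ± 0.54 CPM per kb, with H2-Eb1 overlapping both of its neighbours in that order. In Mitol KO the order was H2-DMa at 59.9, Cd74 at 27.0, H2-Ab1 at 8.83, H2-DMb1 at 6.29, H2-Aa at 5.15, H2-Eb1 at 1.45 and Ciita at 0.883 CPM per kb. H2-Aa thus came after H2-Ab1 and H2-DMb1 in Mitol KO and before them in Control, although its Mitol KO range, 1.98 to 8.98 CPM per kb, covered those of H2-DMb1 and part of that of H2-Ab1. That shift in order also follows in part from the choice of H2-Aa for its low level in Mitol KO. Class I genes were far more abundant per length, with H2-K1 at 1040 ± 64.2 and B2m at 810 ± 33.9 CPM per kb in Control.

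Most members lie together on chromosome 17, in the class II region from H2-Oa to H2-Eb2, chr17:34311314-34560386, and Cd74 and Ciita lie elsewhere. In GENCODE, H2-Aa spans chr17:34493404-34506798 on the minus strand. On the plus strand are H2-Ab1 at chr17:34476663-34488393, H2-Eb1 at chr17:34504236-34535648, H2-DMa at chr17:34338515-34358958 and H2-DMb1 at chr17:34372046-34379204. Counts were made over whole genes, so no exon, intron or UTR can be singled out. Of its 15 genes tested, 8 are class II genes and 7 are not. H2-DMb2, the paralog of H2-DMb1, was at 0.985, 1.31, 1.07 and 1.45 CPM in Mitol KO and at 2.11, 3.52, 2.31 and 5.31 CPM in Control. It fell by 1.47 ± 0.39 (SE) on the log2 scale (edgeR, adjusted p = 0.0413), below every Control library in 4 of 4 Mitol KO libraries. This call was lost in 6 of the 8 fits with a library left out, with an adjusted p-value of 0.139 without Control replicate 4 and of 0.107, 0.0924, 0.104, 0.103 and 0.0546 without Mitol KO replicates 1, 2 and 3 and Control replicates 2 and 3. It was also lost with no filter on low counts (0.0511) and by limma-voom (0.0561). Reads on H2-DMb2 per read on H2-DMb1 were 0.0952 to 0.165 in Mitol KO and 0.193 to 0.333 in Control, without overlap. Few reads lie behind H2-DMb2, and 18.3% of its 75-base windows also occur in H2-DMb1, so this ratio is uncertain.

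The H2-O genes did not pass the test. H2-Oa was at 3.28, 4.79, 4.20 and 6.26 CPM in Mitol KO and 6.33, 9.41, 4.23 and 7.14 CPM in Control, a log2 fold change of -0.55 ± 0.30 (SE; edgeR, adjusted p = 0.262). H2-Ob was at 5.83, 5.34, 14.6 and 16.4 CPM in Mitol KO and 8.44, 14.6, 6.84 and 8.59 CPM in Control, a log2 fold change of 0.13 ± 0.37 (SE; edgeR, adjusted p = 0.863). H2-Ob therefore split within Mitol KO, with replicates 3 and 4 high, which no member showed. H2-Eb2 was under 1 CPM in every library and was not tested. The transcript of H2-Oa shares 32.8% of its bases with the minus-strand gene BC051537, which leaves its count uncertain.

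Between the class II genes lie Tap1 and Tap2, which carry peptides to class I, and the immunoproteasome genes Psmb8 and Psmb9. None of the 7 genes other than class II passed the test (edgeR, 0 at an adjusted p-value under 0.05 and 1 at an unadjusted one, 1 by DESeq2 and 0 by limma-voom). Log2 fold changes were 0.01 for Psmb9, -0.13 for Tap1, 0.18 for Psmb8, -0.10 for Tap2 and 0.03 for Brd2. The lncRNA Gm50335, within the body of H2-DMa on the opposite strand, had the lowest value of the 7, -0.90 ± 0.28 (SE; edgeR, adjusted p = 0.0684).

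**Figure D2:**
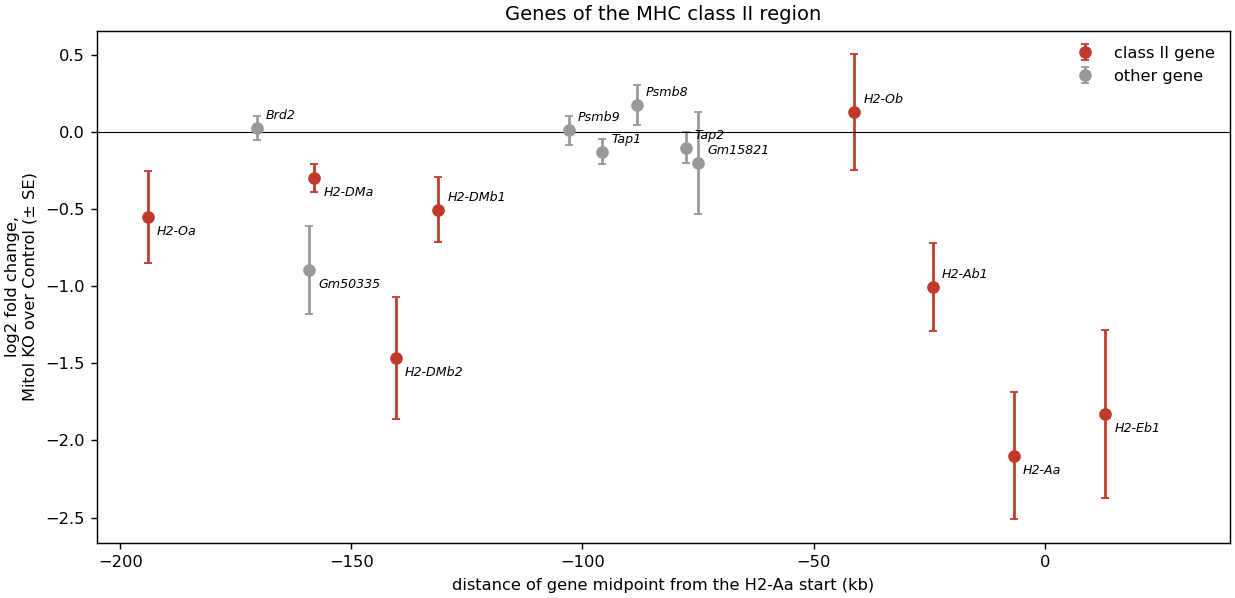
Log2 fold change (Mitol KO over Control, ± SE) of the 15 genes tested in the class II region, against the distance of each gene's midpoint from the start of H2-Aa in kb. Class II genes (red) range from -2.10 for H2-Aa to 0.13 for H2-Ob, and the 7 other genes (grey) from -0.90 to 0.18.

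The factors that sit on class II promoters did not pass the test. Of 11 genes for RFX, NF-Y and CREB/ATF subunits and the acetyltransferases that CIITA recruits, 0 were past the threshold (edgeR), 1 had an unadjusted p-value under 0.05, and DESeq2 and limma-voom called 0. Rfx5, the DNA-binding RFX subunit, was at 54.7, 58.6, 64.0 and 74.6 CPM in Mitol KO and 70.5, 80.3, 67.6 and 78.7 CPM in Control. Mitol KO replicate 4 lay inside the Control range, and the log2 fold change of Rfx5 was -0.24 ± 0.12 (SE; edgeR, adjusted p = 0.211). Rfxap and Rfxank had log2 fold changes of 0.17 ± 0.18 and -0.19 ± 0.15 (SE; edgeR, adjusted p = 0.590 and 0.437).

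Among 17 genes known to induce or repress Ciita, 2 fell and 1 rose, beside 3.75% of all genes lower and 4.68% higher. The 2 that fell, Irf1 and Irf2, encode interferon regulatory factors that act at the interferon-gamma-responsive promoter of Ciita. Irf1 was at 89.6, 63.7, 77.2 and 85.2 CPM in Mitol KO and at 114, 115, 162 and 128 CPM in Control. Irf2 was at 112, 107, 94.8 and 123 CPM in Mitol KO and at 152, 127, 133 and 156 CPM in Control. Both genes were below every Control library in 4 of 4 Mitol KO libraries, and Control replicate 4 lay within or close to the range of the other Controls. Irf1 fell by 0.72 ± 0.14 and Irf2 by 0.38 ± 0.10 on the log2 scale (SE; edgeR, adjusted p = 0.0136 and 0.0434). The call for Irf1 held with any one library left out. Irf2 kept its call only without Mitol KO replicate 4 (adjusted p = 0.021), with 0.0682 to 0.128 in the other 7 such fits and 0.0652 with no filter on low counts.

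Socs3, a feedback inhibitor of JAK and STAT signalling, was the gene of this list that rose. It was at 66.0, 73.4, 191 and 230 CPM in Mitol KO and at 20.7, 27.9, 27.8 and 4.63 CPM in Control. All 4 Mitol KO libraries were above all Control libraries, with replicates 3 and 4 far above 1 and 2 and with Control replicate 4 lowest. Its log2 fold change was 2.80 ± 0.51 (SE; edgeR, adjusted p = 0.0107), and the call held with any one library left out. Socs1, the closer inhibitor of interferon-gamma signalling, had a log2 fold change of 0.04 ± 0.19, and the receptor genes Ifngr1 and Ifngr2 had 0.36 ± 0.12 and 0.45 ± 0.16 (SE; edgeR, adjusted p = 0.912, 0.0932 and 0.0930). Irf4, Irf8 and Spi1, which act at the promoters used in B cells and dendritic cells, also missed the threshold, at -0.25, 0.28 and 0.21.

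**Figure D3:**
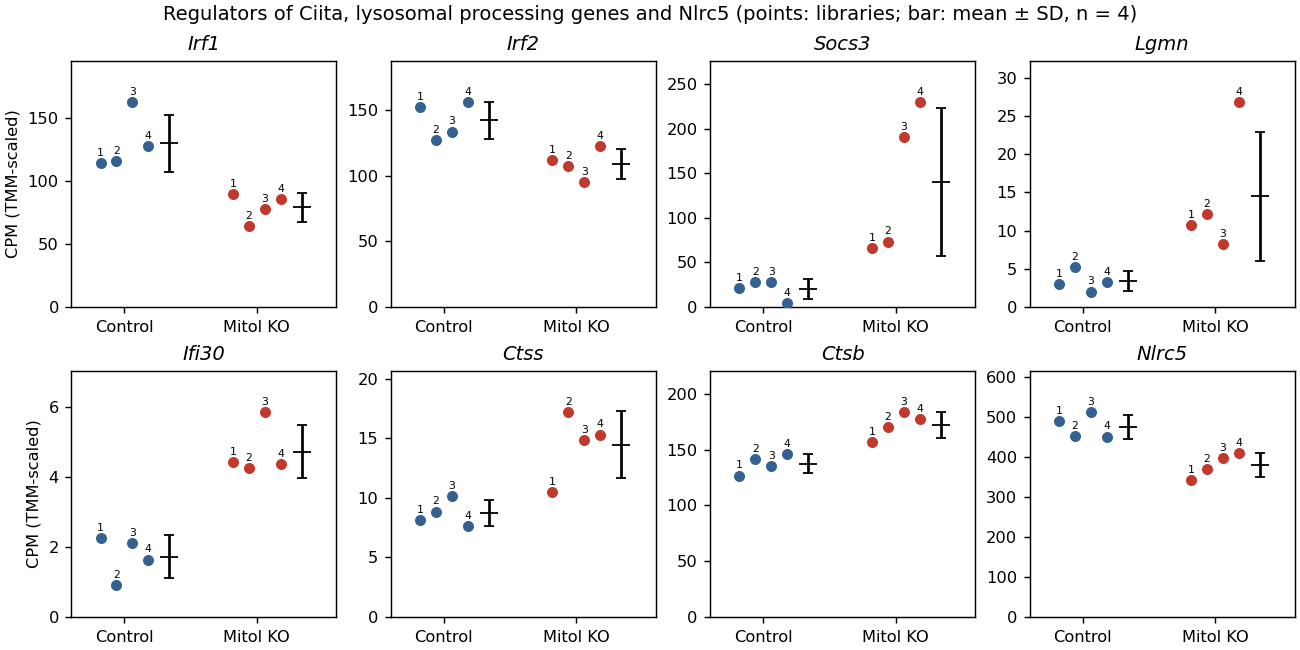
CPM (TMM-scaled, linear axes from 0) per library for the Ciita regulators Irf1, Irf2 and Socs3, the processing genes Lgmn, Ifi30, Ctss and Ctsb, and Nlrc5, with Control in blue, Mitol KO in red and bars for the mean ± SD (n = 4). In none of the 8 genes do the groups overlap, and Socs3 spreads from 66.0 to 230 CPM among Mitol KO libraries. All 8 were past the threshold on this same contrast, so their separation follows in part from that. Over all genes, 7.87% were separate and lower in Mitol KO and 7.28% separate and higher.

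Some genes that act on class II after its synthesis were higher in Mitol KO. Of 16 tested genes for endosomal proteases, related enzymes, tetraspanins and class II turnover, 4 rose and 0 fell (edgeR, with 1 lower at an unadjusted p-value under 0.05 and 0 lower by DESeq2 or limma-voom), beside 4.68% of all genes higher. Lgmn, an asparagine endopeptidase that starts the trimming of the invariant chain, was at 10.7, 12.2, 8.20 and 26.8 CPM in Mitol KO and at 2.95, 5.22, 2.01 and 3.28 CPM in Control. Ifi30, the lysosomal thiol reductase GILT, was at 4.43, 4.25, 5.86 and 4.36 CPM in Mitol KO and at 2.25, 0.907, 2.11 and 1.64 CPM in Control. Ctss, the cathepsin that finishes the trimming, was at 10.5, 17.2, 14.8 and 15.3 CPM in Mitol KO and at 8.16, 8.85, 10.2 and 7.63 CPM in Control. For Lgmn, Ifi30, Ctss and Ctsb, a lysosomal cysteine protease, 4 of 4 Mitol KO libraries were above all Control libraries, and for Ctss replicate 1 was barely so. Over all genes, 7.28% were separate and higher.

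The log2 fold changes of these processing genes were 2.10 ± 0.39 for Lgmn, 1.45 ± 0.34 for Ifi30, 0.73 ± 0.20 for Ctss and 0.32 ± 0.085 for Ctsb (SE; edgeR, adjusted p = 0.0128, 0.0261, 0.0436 and 0.0392). Macrophages also express these genes. The summed level of the monocyte and macrophage markers without Lyz2 was likewise higher in all Mitol KO libraries, at 62.3 to 88.1 CPM against 43.8 to 60.2 CPM. Lyz2 was left out after the values were seen. With it the sums overlapped, at 227 to 251 CPM in Mitol KO and 212 to 248 CPM in Control. Of the 11 markers tested, 0 were past the threshold (edgeR, 3 at an unadjusted p-value under 0.05). The part of these markers in the difference of the processing genes was not tested. Lgmn alone kept its call with each library left out in turn. Ifi30 lost it without Mitol KO replicates 1, 2 or 3 or Control replicates 2 or 4 (adjusted p = 0.0535, 0.0569, 0.072, 0.0683 and 0.063). Ctss and Ctsb kept it only without Mitol KO replicate 1 or 4, and in the other 6 such fits had adjusted p-values of 0.0587 to 0.121 and of 0.0629 to 0.0905. Ctss was also lost by limma-voom (0.0621). Marchf1 and Marchf8, membrane ubiquitin ligases of the MITOL family that remove class II from the cell surface, had log2 fold changes of -0.42 ± 0.53 and 0.18 ± 0.13 (SE; edgeR, adjusted p = 0.659 and 0.419). Marchf1 was at 0.410 to 2.73 CPM in Mitol KO and 1.26 to 2.27 CPM in Control, so a change of moderate size was not detectable at this depth.

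A few class I genes were lower. Of 19 class I presentation genes, 3 fell and 0 rose (edgeR, with 2 higher at an unadjusted p-value under 0.05, 1 by DESeq2 and 1 by limma-voom), beside 3.75% of all genes lower. Nlrc5, the class I counterpart of Ciita, was at 342, 370, 397 and 410 CPM in Mitol KO and at 489, 451, 512 and 450 CPM in Control, separate in 4 of 4 libraries. It fell by 0.33 ± 0.085 (SE) on the log2 scale, and the nonclassical genes H2-Q4 and H2-Q6 fell by 0.42 ± 0.10 and 0.75 ± 0.16 (edgeR, adjusted p = 0.0367, 0.0301 and 0.0183). The abundant genes H2-K1 and B2m had log2 fold changes of -0.12 ± 0.080 and 0.06 ± 0.074 (SE; edgeR, adjusted p = 0.364 and 0.664). Without Control replicate 4 the count of class I genes that fell was 0, with adjusted p-values of 0.0598, 0.0618 and 0.052 for Nlrc5, H2-Q4 and H2-Q6. Nlrc5 and H2-Q4 kept the call only without Mitol KO replicate 4 (0.0199 and 0.00726), the other 6 such fits giving 0.0664 to 0.103 and 0.0552 to 0.0877, and H2-Q6 also lost it without Mitol KO replicate 1 (0.0511). Of the 75-base windows of H2-Q6, 9.56% also occur in H2-Q7, so its count is uncertain.

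Interferon-gamma response genes outside antigen presentation were counted in the same way. Of 16 tested, 2 fell and 0 rose (edgeR, with 0 higher at an unadjusted p-value under 0.05 and by DESeq2 and limma-voom), beside 3.75% of all genes lower. At an unadjusted p-value under 0.05 in edgeR 7 were lower, and DESeq2 called 6 lower and limma-voom 1. Log2 fold changes were below 0 in 13 of the 16, with a median of -0.28, beside 52.3% and -0.02 over all genes. Tgtp2, an interferon-inducible GTPase, was at 24.5, 22.8, 20.2 and 20.6 CPM in Mitol KO and at 29.3, 36.9, 48.0 and 48.7 CPM in Control. It fell by 0.89 ± 0.17 (SE) on the log2 scale, in 4 of 4 libraries and with any library left out (edgeR, adjusted p = 0.0129), although 85.2% of its 75-base windows also occur in Tgtp1. Gbp4, a guanylate-binding protein, was at 6.32, 10.3, 8.79 and 13.3 CPM in Mitol KO and at 10.5, 39.6, 17.0 and 42.7 CPM in Control. Mitol KO replicate 4 of Gbp4 lay above Control replicate 1, and its log2 fold change was -1.51 ± 0.39 (SE; edgeR, adjusted p = 0.0358). The Gbp4 call was lost without Mitol KO replicates 1, 2 or 3 or Control replicates 2 or 4 (adjusted p = 0.0964, 0.0815, 0.0904, 0.107 and 0.109) and by limma-voom (0.0681). Costimulatory ligands, among them Cd80 and Cd86, had 0 of 7 past the threshold (edgeR, 1 at an unadjusted p-value under 0.05, 0 by DESeq2 and limma-voom).

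**Figure D4:**
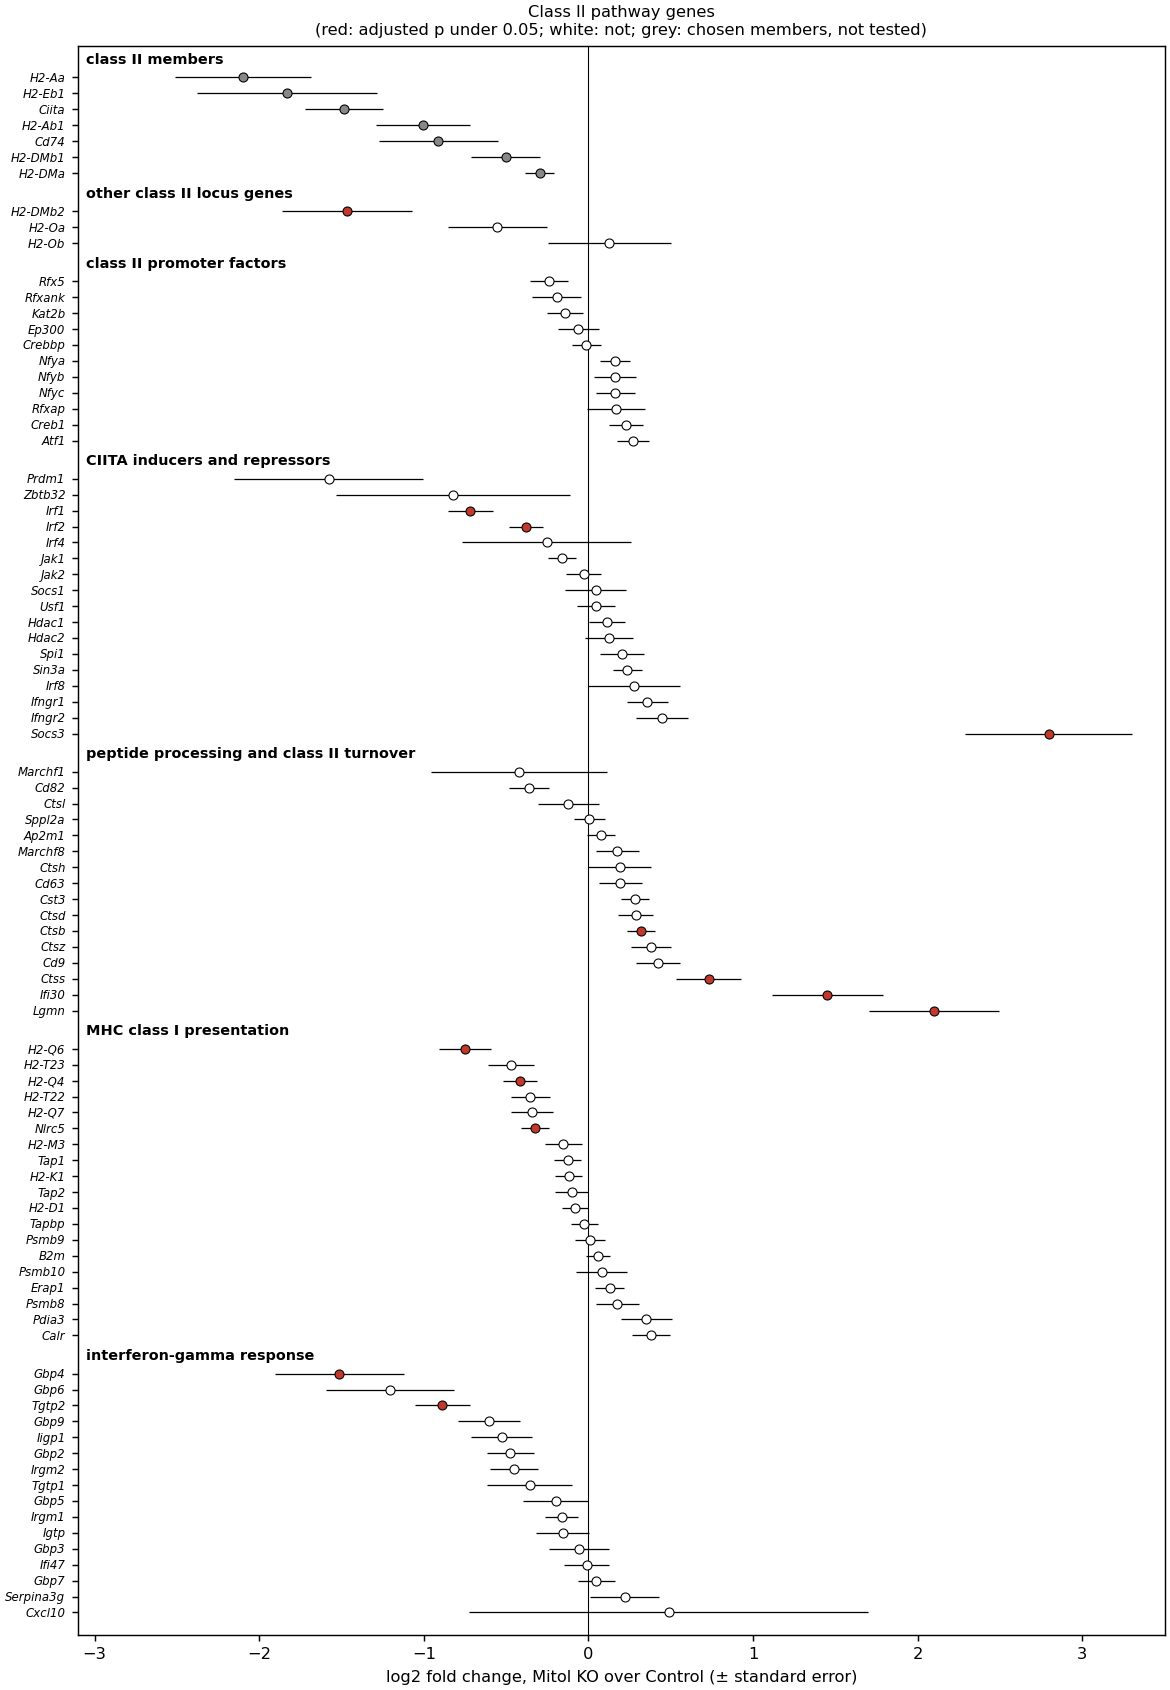
Log2 fold change (Mitol KO over Control, ± SE) of the members (grey, not tested) and of 6 groups of pathway genes, with genes past an adjusted p-value of 0.05 in red. The members lie from -2.10 to -0.30, the 4 called processing genes from 0.32 to 2.10, and the promoter factors within 0.3 of 0.

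Other cells that carry class II were looked for by their markers. Of 19 B-lineage markers 8 were in the table, and their summed level was 22.2 to 32.7 CPM in Mitol KO and 35.7 to 51.0 CPM in Control, highest in Control replicate 4. Most of the sum came from Cd79b, Cr2 and Fcer2a, the 3 markers tested. Control replicate 4 was the highest Control library in 2 of these and the lowest in Cd79b. There Cd79b was at 13.9 CPM, against 17.6 to 20.7 CPM in the other Controls. Ms4a1, Pax5 and Ebf1 were not among the rows, Cd79a was under 2 CPM in every library, and 0 of 3 tested markers passed (edgeR, 1 at an unadjusted p-value under 0.05, 0 by DESeq2 and limma-voom). Of 20 dendritic cell markers 14 were in the table, without Itgax, Xcr1 and Siglech, and their sum was 1151 to 1382 CPM in Mitol KO and 1162 to 1256 CPM in Control. Most of it came from Wdfy4 at 748 to 879 CPM and Tcf4 at 185 to 234 CPM, and without these 2 genes, left out after the values were seen, it was 168 to 269 CPM in Mitol KO and 191 to 227 CPM in Control. Of 12 tested, 0 fell (edgeR, with 3 lower at an unadjusted p-value under 0.05, 3 by DESeq2 and 1 by limma-voom) and 1 rose. Among those that missed the threshold, Ccr9 was at 2.83 to 6.15 CPM in Mitol KO and 7.03 to 8.17 CPM in Control, a log2 fold change of -0.94 ± 0.27 (SE; edgeR, adjusted p = 0.0535). The gene that rose was Clec10a, a lectin of dendritic cells and macrophages, at 3.04, 3.49, 4.79 and 1.79 CPM in Mitol KO and 0.141, 0.794, 0 and 1.16 CPM in Control, a log2 fold change of 2.57 ± 0.68 (SE; edgeR, adjusted p = 0.0386). Of 20 monocyte and macrophage markers 17 were in the table, at 227 to 251 CPM in Mitol KO and 212 to 248 CPM in Control, and 0 of 11 tested passed (edgeR, 3 at an unadjusted p-value under 0.05, 2 by DESeq2, 0 by limma-voom). Lyz2, at 160 to 190 CPM, made up most of that sum, and without it, again a choice made after the values were seen, the groups did not overlap, at 62.3 to 88.1 CPM in Mitol KO and 43.8 to 60.2 CPM in Control. Of these 11 markers 9 had log2 fold changes above 0, with a median of 0.68. The 3 with an unadjusted p-value under 0.05 were all higher in Mitol KO, Mrc1 and Itgam with log2 fold changes of 1.62 ± 0.63 and 1.61 ± 0.53 (SE; edgeR, adjusted p = 0.124 and 0.0768), and Vcam1 at 3.36 to 11.2 CPM against 0.965 to 3.63 CPM in Control (edgeR, adjusted p = 0.0558). The part of these markers in the class II differences was not tested.

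Control replicate 4 had the highest level among the Control libraries in 4 of 12 tested dendritic cell markers and the lowest in 5, and in 2 and 2 of the 11 monocyte and macrophage markers. Clec9a, a receptor of cross-presenting dendritic cells, was at 12.4 CPM there, 1.27 to 4.43 CPM in the other Control libraries and 0.328 to 1.85 CPM in Mitol KO. Cr2, the complement receptor CD21, was at 26.2 CPM there, 10.97 to 15.1 CPM in the other Controls and 5.09 to 12.9 CPM in Mitol KO. Zbtb46, a transcription factor of dendritic cells, was at 25.2 CPM there and 10.9 to 15.4 CPM in the other Controls, and Cd86 at 9.85 CPM beside 3.92 to 5.78 CPM. In the other direction, Flt3, a cytokine receptor of dendritic cell progenitors, was at 50.2 CPM there and 55.3 to 75.9 CPM in the other Controls, and the transcription factor gene Irf8 was at 8.98 CPM beside 13.2 to 22.2 CPM. These genes were chosen after their values were seen. Among the markers that the sort removes, Cd48 was at 6.65, 3.49, 4.20 and 2.35 CPM in Mitol KO and 0.984, 1.25, 2.31 and 0.483 CPM in Control, a log2 fold change of 1.72 ± 0.48 (SE; edgeR, adjusted p = 0.0450), and 0 genes of that list were past the threshold without Control replicate 4. CD48 marks the progenitors that the HSC gate leaves out, and its part in the class II differences was not tested either.

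The genes whose levels followed H2-Aa most closely were sought among 12012 genes with at least 50 mean normalized counts. Pearson correlation of log2 CPM over the 8 libraries was highest for Gm37463 (r = 0.986), A530064N14Rik (0.985), Tns2 (0.974), X6030442K20Rik (0.974) and Prkg1 (0.971). The leading X of X6030442K20Rik is the count table's spelling of a symbol that begins with a digit. The members came lower, H2-Ab1 in place 97 with r = 0.898, H2-Eb1 at 0.854, Ciita at 0.793, H2-DMb1 and Cd74 at 0.753 and H2-DMa at 0.637. These values hold the difference between groups, which chose H2-Aa, so the libraries were also centred on their group means. Then the 5 highest were Gm37463 (0.981), Bmi1 (0.978), Gm26814 (0.973), Rngtt (0.959) and Ggh (0.956). H2-Ab1 stood at 0.757, Cd74 at 0.692, H2-Eb1 at 0.652, H2-DMb1 at 0.404, Ciita at 0.05 and H2-DMa at -0.56. With 8 points that share depth, and of which Control replicate 4 is extreme, these figures are descriptions only.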

How the data were processed

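RNA-seq was carried out on 8 libraries of 100 sorted HSCs, 4 Mitol KO and 4 Control. Per the paper and the labels, the authors aligned single-end reads of 75 bases to mm39 with STAR, merged alignments with SAMtools and obtained per-gene read counts with Subread, and they deposited these raw counts without normalization. The annotation and strand setting of the counting are not given in the sources used here. The table holds 23094 rows, none with fewer than 11 counts in all. The 1029 rows without a symbol, 0.335% to 0.467% of a library's counts, were left out.

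Groups came from the sample titles. Counts were fitted in edgeR (version 4.0.16, R 4.3.3) by its quasi-likelihood test after TMM scaling, its default filter on low counts, condition as the only term and Benjamini-Hochberg adjustment over 16444 genes, at a threshold of 0.05. On simulated counts for Mitol KO against Control, over 16189 genes, it recovered 67 of 97 genes changed 2-fold and 92 of 97 changed 4-fold. The simulated spread between libraries depended on a gene's abundance alone, and no library stood apart as Control replicate 4 does. Recovery in the real counts may therefore be lower. Alternatives were DESeq2 (version 1.42.0; Wald test, the tool of the study, and size factors), limma-voom (version 3.58.1), no filter, a replicate block and each library left out in turn. CPM are counts over TMM-scaled totals, normalized counts are counts over DESeq2 size factors, and log2 CPM had a prior count of 2. Counting intervals are exact Poisson intervals at 95%. No pair of libraries of a group agreed within sampling noise (chi-square per degree of freedom 6.05 or more).

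Positions, canonical transcript lengths and promoters came from GENCODE vM39 on GRCm39, the build of mm39. Named were the 7 members, the other class II locus genes, Rfx5, Rfxap, Rfxank, Nlrc5, Marchf1, Marchf8, Ctss, pathway genes past the threshold, leading markers of other cells, and the 5 genes most correlated with H2-Aa, with further genes given as values. The members and all gene lists were chosen with earlier results of these data known, so members carry no test and no list was tested as a set. A few genes are not reported here and were left out of the lists.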

Additional observations from a re-analysis of the deposited data

Results flagged for a closer look

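Of 21 quantities checked in each group of 4 libraries, 42 groups in all, 4 had a highest or lowest library whose gap to the next was above Dixon's 95% limit, and chance alone flags about 1 group in 20. H2-Aa was at 44.6 CPM in Control replicate 4, against 16.8 to 20.1 CPM in the other Control libraries. Cd74 was at 154 CPM in the same library, against 42.3 to 48.1 CPM. The summed level of the members was therefore also apart there, at 378 CPM against 191 to 204 CPM. Ifi30 was at 5.86 CPM in Mitol KO replicate 3, against 4.25 to 4.43 CPM in the other Mitol KO libraries. The 3 in Control share 1 library and are not independent of each other.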

How the results depend on the processing

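For 20 named genes, 260 values under other settings kept the direction of the reported one, 0 reversed, 202 kept their side of the threshold or stayed within the spread between libraries, 57 were no longer past the threshold and 1 moved by more than that spread, Cd74 without Control replicate 4 (log2 fold change -0.23). With the Wald test of DESeq2, 995 genes were lower and 1322 higher (616 and 770 by edgeR). With it 7 processing genes rose in place of 4 and 6 interferon-gamma genes fell in place of 2. Of the members, 5 were past the threshold in place of 3. The members were picked for this same contrast, so their counts show only the effect of the setting and are not a test of them. By limma-voom 1 interferon-gamma gene fell, and with no filter on low counts 1 Ciita regulator fell in place of 2. Leaving out each library in turn gave 192 to 1019 genes lower and 167 to 1482 higher. In those fits 1 to 2 Ciita regulators were lower and 1 to 2 higher, and 1 to 6 processing genes were higher. Class I genes that were lower numbered 0 to 4, and interferon-gamma genes that were lower 1 to 6. The lowest counts over all genes came without Control replicate 2 and the highest without Mitol KO replicate 4, and without Control replicate 4 they were 245 and 265. The log2 ratio of the summed class II level, -0.78, ranged from -0.88 to -0.48 without 1 library, lowest in size without Control replicate 4, and was -0.84 on plain library totals, -0.76 on DESeq2 size factors and -0.73 without Cd74. The cause of these shifts was not tested.

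Whether the replicate numbers pair the samples is not known. Deviations of same-numbered libraries correlated at 0.080, -0.070, 0.053 and 0.067, and 2 of 4 numbers were their own best match. With 4 numbers this cannot settle the question. With the replicate block, 695 genes were lower and 957 higher, and of the named pathway genes Nlrc5 lost its call (edgeR, adjusted p = 0.0504).

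Few reads lie behind H2-Eb1, H2-DMb2, Ifi30, Marchf1, Clec10a and Cd48, and 4 libraries per group of 100 cells each limit the precision of every value.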

Other observations

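Cxcl9, an interferon-gamma-induced chemokine, was at 50.9 CPM in Control replicate 2, at 0.328 CPM in Mitol KO replicate 1 and at 0 in the other 6 libraries. It was not tested for its low counts elsewhere and was chosen after its values were seen. Control replicate 2 was not high for the class II members, with the lowest H2-Aa, H2-Ab1, H2-Eb1 and Cd74 levels of its group, except that its Ciita level, 19.8 CPM, was next to the highest. Gbp4, another gene of the interferon-gamma list, was at 39.6 CPM in that library and at 42.7 CPM in Control replicate 4, against 10.5 and 17.0 CPM in the other Controls.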
